A study of Sus scrofa with 21 samples.

Results

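The data described here are the blood levels of 9 genes that carry interferon and cytokine signals from the cell surface to the nucleus in pigs. They are the interferon receptor subunits IFNAR1, IFNAR2 and IFNGR1, the Janus kinases JAK1, JAK2 and TYK2, and the transcription factors STAT2, STAT3 and STAT4. The members were the probes that carry one of these 9 names in the array's own annotation. They are 33 probes among the 60305 of the array, and the 9 genes are among 34511 names that were tested.

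The DD pigs (labelled SLAdd) are an inbred minipig line, homozygous at the swine leukocyte antigen locus, and the LW (Large White) pigs are a commercial breed that served as controls. There were 10 DD pigs from 5 litters and 11 LW pigs from 6 litters, all aged 60 days and all fed a standard diet without restriction, and no group received a drug or carried a transgene. DD is a single inbred herd, so that what separates the breeds includes genetic background and herd history as well as any condition of the animals, and these cannot be told apart. RNA from whole blood was hybridized to one array per pig, in a single colour, on 3 chips with both breeds on each. The values are log2 intensities after quantile normalization, and how many arrays there are sets the precision.

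Interferons and many cytokines bind receptors that have no enzyme activity of their own. The receptor chains hold Janus kinases, which phosphorylate each other, the receptor and the STAT proteins when the ligand binds, and the STATs then enter the nucleus and switch on target genes. Type I interferons use IFNAR1 with TYK2 and IFNAR2 with JAK1, and STAT2 and IRF9 belong to the complex that induces antiviral genes. Interferon gamma uses IFNGR1 with JAK1 and IFNGR2 with JAK2. STAT3 serves the interleukin 6 family, and STAT4 serves interleukin 12 in T cells and natural killer cells. Activation of these proteins is by phosphorylation, which an RNA array does not measure.

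In Sscrofa11.1, as RefSeq annotates it, IFNAR2 (196765915 to 196852640), IFNAR1 (196925731 to 196951398) and the partner gene IFNGR2 (197007303 to 197035604) lie side by side on chromosome 13. STAT4 lies on chromosome 15 (95656206 to 95764099), and STAT3 on chromosome 12 (20407316 to 20471091) next to STAT5A and STAT5B. STAT2 is on chromosome 5 (21733030 to 21748960), JAK1 on chromosome 6 (147320288 to 147567188), TYK2 on chromosome 2 (69157774 to 69183555), and JAK2 (216849744 to 217002310) and IFNGR1 (27037151 to 27061095) are on chromosome 1. The exon or UTR that each probe reads was not analysed here.

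Each level rests on probes of 60 bases, and the sequences of 6 of them are shown first because they set what the values below can mean. Of the 33 probes, 25 have at least 1 forward reading frame without a stop codon over all 60 bases. Sequences this short often have such a frame whatever they encode, so the count does not show that a probe lies in coding sequence. The first probe below is one of the pair on JAK1 that differed between the breeds, and the next one is a STAT2 probe. The STAT4 pair gave unlike differences. The STAT3 pair overlaps by 32 bases with 1 difference, G53T, counted from the 5′ end of the first of them, and that base is in capitals in both.
JAK1 probe A_72_P304819: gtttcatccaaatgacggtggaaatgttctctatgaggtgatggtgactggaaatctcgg
STAT2 probe A_72_P442654: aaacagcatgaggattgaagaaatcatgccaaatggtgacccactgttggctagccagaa
STAT4 probe A_72_P305704: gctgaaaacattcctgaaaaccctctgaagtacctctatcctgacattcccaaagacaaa
STAT4 probe A_72_P555222: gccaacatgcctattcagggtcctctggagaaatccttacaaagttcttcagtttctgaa
STAT3 probe A_72_P561986: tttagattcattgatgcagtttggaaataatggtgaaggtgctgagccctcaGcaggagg
STAT3 probe A_72_P669204: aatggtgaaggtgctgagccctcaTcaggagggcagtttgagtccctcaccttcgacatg

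The only probe named IFNAR2 needs its own description. It shares 21 to 24 consecutive bases with 3 probes that the array files under other names, A_72_P037091 and A_72_P289159, which have no gene name in the array's files, and a probe of the gene SLC37A4. A stretch of 30 bases from each is given below, with the 11 letters AACTTCCATAT, which all of them hold, in capitals. These letters were chosen after the probes were seen.
IFNAR2 probe A_72_P136196: ctggcccaggAACTTCCATATgccatgggt
probe A_72_P037091: ctgacccagaAACTTCCATATgccatgggt
probe A_72_P289159: ctggcccaggAACTTCCATATaccatgggt
SLC37A4 probe A_72_P432294: ttggcccaggAACTTCCATATgcctcaggt

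The 11 letters stand on the probe strand of 36 of the 60305 probes (0.0597%), and on the opposite strand of 4 (0.00663%). The 36 probes had a median log2 intensity of 14.27, with a range of 3.99 to 18.35, against a median of 5.39 over all probes, while the 4 with the letters on the opposite strand had a median of 4.09. The IFNAR2 probe, at 17.51, ranked 102 among all probes. Its 3 relatives were at 16.52, 16.36 and 16.80. The brightness of a probe depends on its own sequence as well as on the RNA it meets, and is not a transcript level. The breed differences of the relatives were -0.28 (SE 0.13) for A_72_P037091, -0.22 (SE 0.12) for A_72_P289159 and -0.25 (SE 0.12) for SLC37A4, against -0.22 (SE 0.10) for the IFNAR2 probe. The difference was below 0 for 32 of the 36 probes, with a median of -0.22, and 1 of them passed the test. Over all 45228 probes tested it was below 0 for 26034, with a median of -0.07, and 21.7% passed. Values under the name IFNAR2 below are therefore those of a probe that shares letters with other transcripts, and how much of its signal comes from IFNAR2 RNA was not tested.

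None of the 9 genes differed between the breeds in the fit over all genes. With limma, breed and chip as fixed effects, the sow as a random block and Benjamini-Hochberg adjustment over 34511 names, 0 of 9 passed an adjusted p of 0.05, and 2 of 9 (IFNAR2 and JAK1) had an unadjusted p below 0.05. An unadjusted limma p below 0.05 was also found for 12710 of the 34511 names. Over all names, 7313 passed (21.2%), of which 3930 were higher (11.4%) and 3383 lower (9.8%) in DD pigs. The 9 differences ran from -0.34 to 0.26 with 4 above 0, and their median was -0.02 against -0.05 over all names. The lowest bound of the 9 intervals was -0.67 (JAK1) and the highest was 0.62 (STAT2), which are the sizes that these arrays leave possible. Without DD_06, the DD pig with the brightest array, IFNAR2 (-0.27, adjusted p = 0.0372) and JAK1 (-0.40, adjusted p = 0.0482) passed, and leaving out any other pig gave 0 of 9. In the run without DD_06, however, 11486 of the 34511 names passed (5833 higher and 5653 lower), so the 2 calls do not set these genes apart. All 33 probes passed the filter on low values, and 27 of them were well above background on all 21 arrays.

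**Figure D1:**
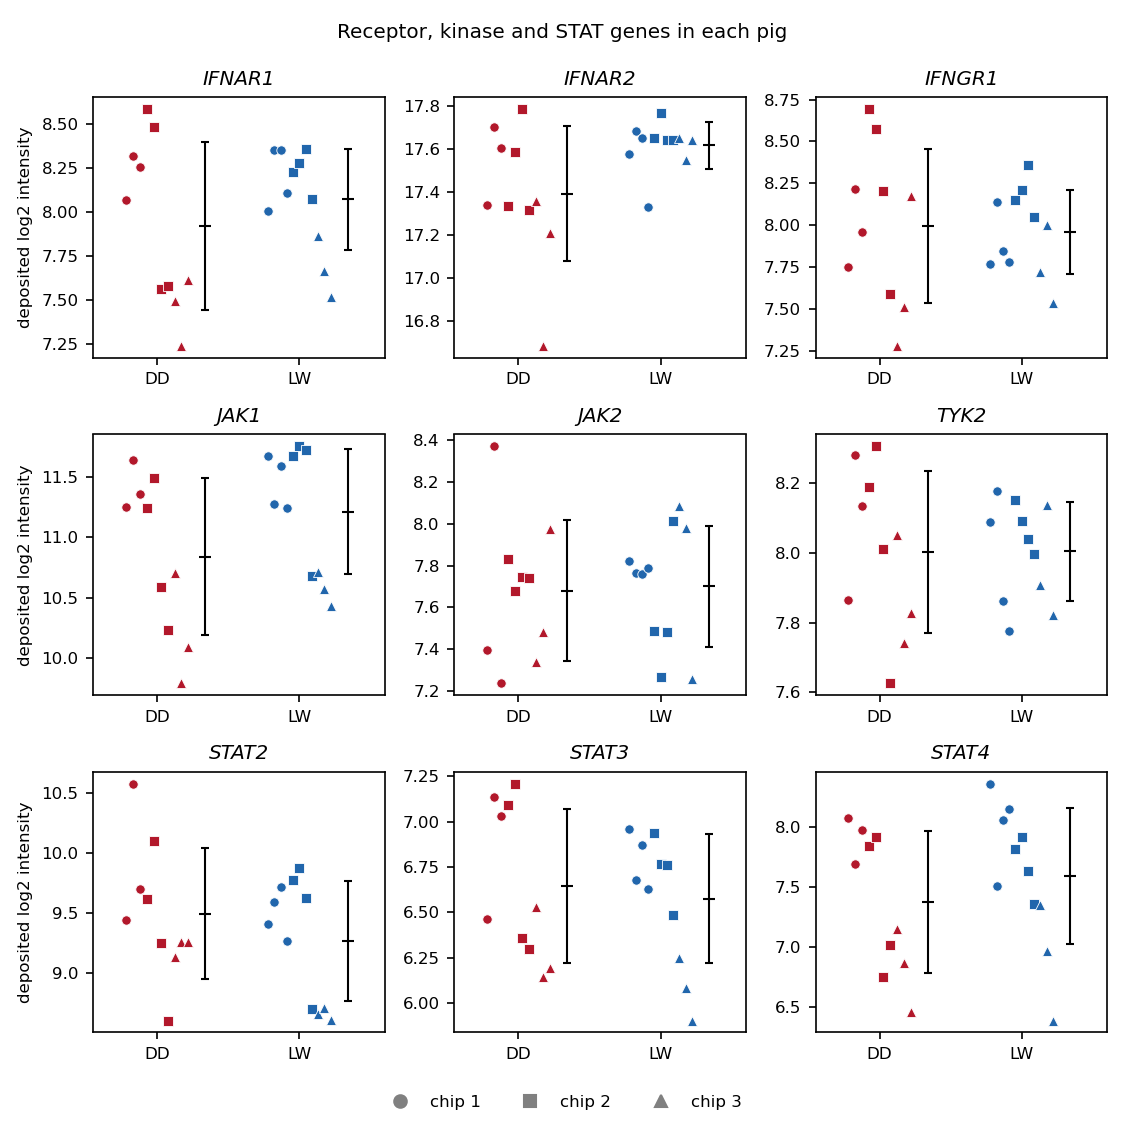
Deposited log2 intensity (vertical axes) of the 9 genes in each of 10 DD (red) and 11 LW (blue) pigs, with the chip of each array given by the marker's shape and the mean ± SD of each breed in black. The breeds overlap in every panel, and the arrays of chip 3 are the lowest or among the lowest of both breeds for JAK1 and STAT4.

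Among the receptor chains, IFNAR1, the signalling chain that binds TYK2, ranged from 7.24 to 8.58 in DD pigs with a median of 7.84, and from 7.52 to 8.36 in LW pigs with a median of 8.11. The DD pigs spread to both sides of the LW pigs, and the difference was -0.14 (SE 0.12, 95% interval -0.38 to 0.11, limma adjusted p = 0.43). IFNGR1, the ligand-binding chain of the interferon gamma receptor, ranged from 7.28 to 8.69 (median 8.07) in DD and from 7.53 to 8.36 (median 8.00) in LW pigs. Again the DD values reached below and above all LW values, and the difference was 0.03 (SE 0.13, interval -0.24 to 0.30, adjusted p = 0.886). The probe named IFNAR2 ranged from 16.68 to 17.78 (median 17.35) in DD and from 17.33 to 17.76 (median 17.64) in LW pigs. Of the DD pigs, 8 lay below the LW median, and the difference was -0.22 (SE 0.10, interval -0.43 to -0.01, adjusted p = 0.117), but it turned to 0.30 (adjusted p = 0.0477) under scaling of each array to its 75th percentile in place of quantile normalization.

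Among the kinases, JAK1, which serves the receptors of both interferon types and of many interleukins, had the largest difference of the 9. It ranged from 9.79 to 11.64 (median 10.97) in DD pigs and from 10.43 to 11.75 (median 11.28) in LW pigs. The lowest values were from DD pigs, the upper ends of the breeds were close, and the difference of -0.34 (SE 0.16, interval -0.67 to -0.00078) did not pass the test (adjusted p = 0.135). JAK2, the partner kinase at the interferon gamma receptor and at the receptors of erythropoietin and growth hormone, ranged from 7.24 to 8.37 (median 7.71) in DD and from 7.26 to 8.08 (median 7.76) in LW pigs. Its groups covered nearly the same range, with a difference of -0.02 (SE 0.14, interval -0.30 to 0.27, adjusted p = 0.948). TYK2, the kinase bound to IFNAR1 and to the interleukin 12 receptor, ranged from 7.63 to 8.30 (median 8.03) in DD and from 7.78 to 8.18 (median 8.04) in LW pigs. The difference of TYK2 was 0.0019 (SE 0.10, interval -0.20 to 0.20, adjusted p = 0.991).

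Among the STATs, STAT2, which acts with IRF9 in the type I interferon response, ranged from 8.60 to 10.58 (median 9.35) in DD and from 8.60 to 9.87 (median 9.41) in LW pigs. The 2 highest DD pigs lay above all LW pigs and 1 DD pig lay below them all. The fitted difference was 0.26 (SE 0.18, interval -0.11 to 0.62, adjusted p = 0.301), opposite in sign to that of these medians, which still hold the chip effect. With the chip effect removed the STAT2 medians were 9.54 (DD) and 9.13 (LW), of the same sign as the fit. STAT3 ranged from 6.14 to 7.21 (median 6.49) in DD and from 5.90 to 6.96 (median 6.68) in LW pigs. Here too the medians and the fitted difference of 0.09 (SE 0.12, interval -0.15 to 0.34, adjusted p = 0.594) had opposite signs. With the chip effect removed the STAT3 medians were 6.69 (DD) and 6.61 (LW), again of the same sign as the fit. STAT4 ranged from 6.46 to 8.07 (median 7.43) in DD and from 6.39 to 8.37 (median 7.64) in LW pigs, with a difference of -0.17 (SE 0.15, interval -0.49 to 0.15, adjusted p = 0.448). The spread within a breed was wider than the difference between the breeds for all 3 STATs.

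Siblings share a sow, so the comparison was also made on 11 litter means after removal of the chip effect. In an exact two-sided permutation over all 462 divisions of the litters, where 0.00216 is the smallest p possible and 9 such tests were made without adjustment, p was 0.0108 for IFNAR2 and 0.0519 for JAK1. For the other 7 genes it lay between 0.199 (STAT2) and 0.957 (TYK2).

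**Figure D2:**
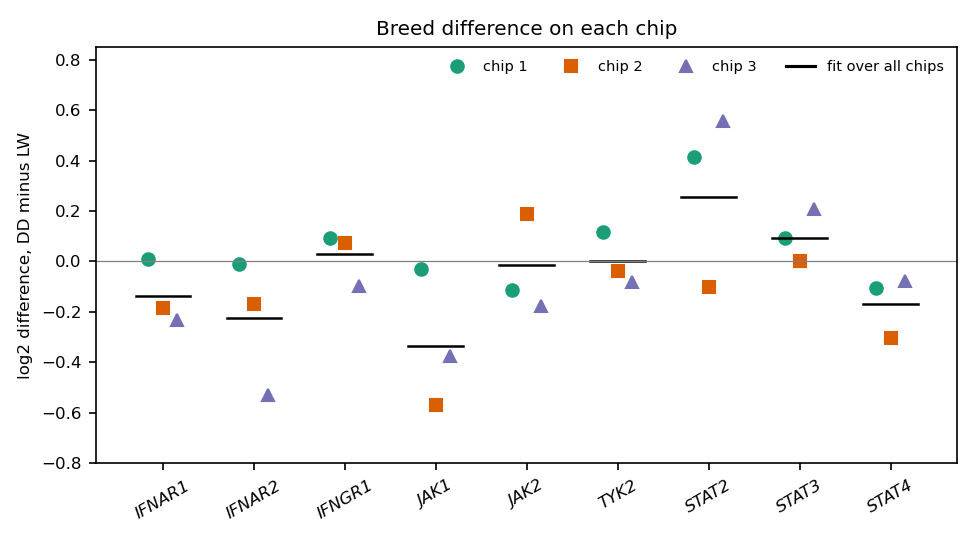
Difference of the breed means (DD minus LW, log2 scale) of each gene on each chip, with the fitted difference over all chips as a black line. On chip 1 JAK1 and IFNAR2 differ by -0.03 and -0.01, and on chips 2 and 3 they lie lower.

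The chips did not give equal differences. The DD arrays were dimmer than the LW arrays, with a log2 75th percentile of the processed signal of 7.53 ± 0.54 (SD, n = 10) against 8.22 ± 0.38 (SD, n = 11), and the gap grew from 7.95 against 8.02 on chip 1 to 7.55 against 8.31 on chip 2 and 7.09 against 8.36 on chip 3. The study's methods name a technical bias of the third chip. JAK1 differed by -0.03 on chip 1, -0.57 on chip 2 and -0.38 on chip 3. IFNAR2 differed by -0.01, -0.17 and -0.53. Both genes had differences near 0 on the chip where the breeds were about equally bright, and with the brightness of each array as a covariate their differences were 0.02 (JAK1) and 0.03 (IFNAR2). The same covariate moved other members away from 0: STAT2 from 0.26 to 0.53 and STAT3 from 0.09 to 0.24. With it 0 of the 9 genes passed. STAT2 differed by 0.41 on chip 1, -0.10 on chip 2 and 0.56 on chip 3. STAT3 was above 0 on all 3 chips (0.09, 0.0026 and 0.21) and STAT4 below 0 on all 3 (-0.11, -0.30 and -0.08). The part that brightness has in these differences was not tested.

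Single animals held many of the extremes. In the values before removal of the chip effect, LW_24, on chip 3, was the lowest LW pig for 7 of the 9 genes. DD_21, also on chip 3, was the lowest DD pig for 4, while DD_06 was the highest DD pig for 3. After removal of the chip effect, LW_24 was the lowest LW pig only for STAT3, STAT4 and JAK2, and DD_21 the lowest DD pig only for IFNAR2. DD_16 was then the lowest DD pig for STAT2, STAT3, IFNGR1, TYK2 and JAK1, and DD_06 the highest for STAT2 and JAK2. DD_21 had the dimmest array (6.56) and DD_06 the brightest of the DD arrays (8.49).

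**Figure D3:**
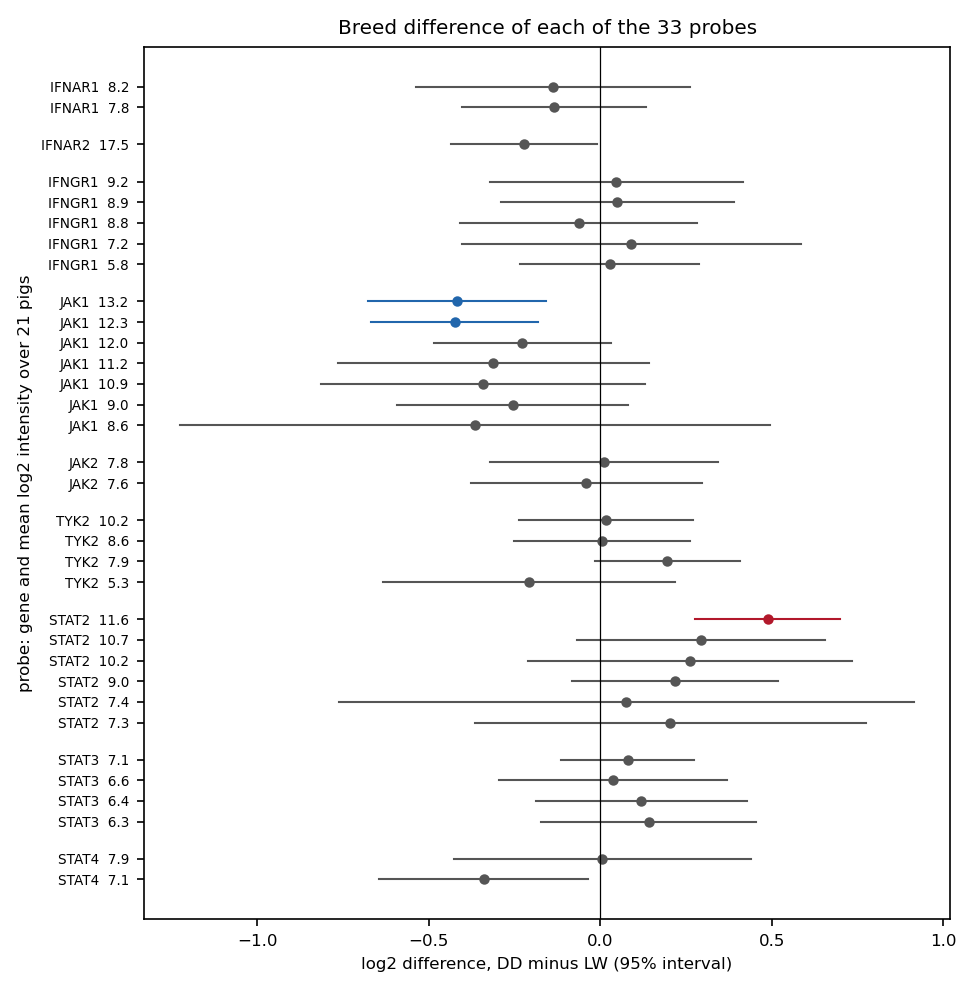
Difference between the breeds (DD minus LW, log2 scale, with 95% interval) for each of the 33 probes, labelled with the gene and the mean log2 intensity. The 2 brightest JAK1 probes (blue, lower) and the brightest STAT2 probe (red, higher) passed the adjusted p of 0.05, and the other 30 (grey) did not.

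Single probes of JAK1 and STAT2 differed where the mean over the gene's probes did not pass. In the same model fitted to 45228 probes, of which 9809 passed (21.7%), 3 of the 33 probes passed: 1 of 6 for STAT2, which was higher in DD pigs, and 2 of 7 for JAK1, which were lower. STAT2 probe A_72_P088106 ranged from 11.42 to 12.64 in DD and from 11.06 to 11.90 in LW pigs, and its difference was 0.49 (SE 0.10, limma adjusted p = 0.00355). It was higher in DD pigs on each chip, by 0.42, 0.39 and 0.70. A further probe of the array, filed under an accession number and with the same 60 bases, gave 0.45 (SE 0.10, adjusted p = 0.00482). Another, A_72_P119201, also filed under an accession number and sharing 54 of the bases, gave 0.18 (SE 0.13, adjusted p = 0.331) and did not pass. All 6 STAT2 probes lay above 0, from 0.08 to 0.49, with SEs from 0.10 to 0.40.

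JAK1 probe A_72_P304819, whose sequence is given above, ranged from 12.17 to 13.38 in DD and from 12.95 to 13.86 in LW pigs, with a difference of -0.42 (SE 0.13, limma adjusted p = 0.0259). JAK1 probe A_72_P088086 ranged from 11.43 to 12.57 in DD and from 12.08 to 12.78 in LW pigs, with a difference of -0.42 (SE 0.12, adjusted p = 0.0193). Both differed more on chips 2 and 3. The first differed by -0.09, -0.44 and -0.77 on chips 1, 2 and 3, and the other by -0.09, -0.45 and -0.78. All 7 JAK1 probes lay below 0, from -0.42 to -0.23.

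In alternatives chosen after these results were seen, the 3 calls were not made without chip 3, where STAT2 probe A_72_P088106 gave 0.42 (limma adjusted p = 0.118) and the JAK1 probes -0.28 and -0.28 (adjusted p = 0.425 and 0.408). With array brightness as a covariate that STAT2 probe gave 0.44 (adjusted p = 0.0833), close to its value without the covariate, while JAK1 probe A_72_P088086 gave -0.09 and A_72_P304819 gave -0.12 (adjusted p = 0.879 and 0.886). When each pig was left out in turn, the STAT2 probe passed in 21 of 21 runs, with differences of 0.43 to 0.53. JAK1 probe A_72_P088086 passed in 20, all but the run without LW_18, and A_72_P304819 in 18, all but those without DD_21, LW_18 or LW_22.

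The other genes had probes that did not pass. The STAT4 pair printed above gave 0.0062 (A_72_P305704) and -0.34 (A_72_P555222, limma adjusted p = 0.0975). TYK2 had 4 probes from -0.21 to 0.20, IFNGR1 had 5 from -0.06 to 0.09, and STAT3 had 4, all above 0, from 0.04 to 0.14. The STAT3 pair that overlaps gave 0.04 and 0.14. The JAK2 pair gave 0.01 and -0.04, and the IFNAR1 pair -0.14 and -0.13. Probes of one gene read the same RNA and are no replicates of the breeds.

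Other genes of the same families gave no call either. For JAK3, STAT5A, STAT5B, STAT6 and the STAT partner IRF9, 0 of 5 passed in limma and 0 had an unadjusted p below 0.05. IRF9, the DNA-binding partner of STAT2, gave 0.13 (SE 0.23), and -0.12, 0.68 and -0.33 on chips 1, 2 and 3. LW_22 was at 13.13 for IRF9, beside an LW median of 10.06. The IRF9 difference was 0.35 without LW_22 and 0.0086 without LW_18. STAT6, the factor of interleukin 4, gave 0.03 (SE 0.12), and JAK3, the kinase of the common gamma chain, gave -0.04 (SE 0.10). STAT5B gave -0.07 (SE 0.16) and STAT5A -0.13 (SE 0.14), the factors of interleukin 2 and growth hormone signals. IFNGR2, the second chain of the interferon gamma receptor, gave 0.32 (SE 0.16, adjusted p = 0.148).

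**Figure D4:**
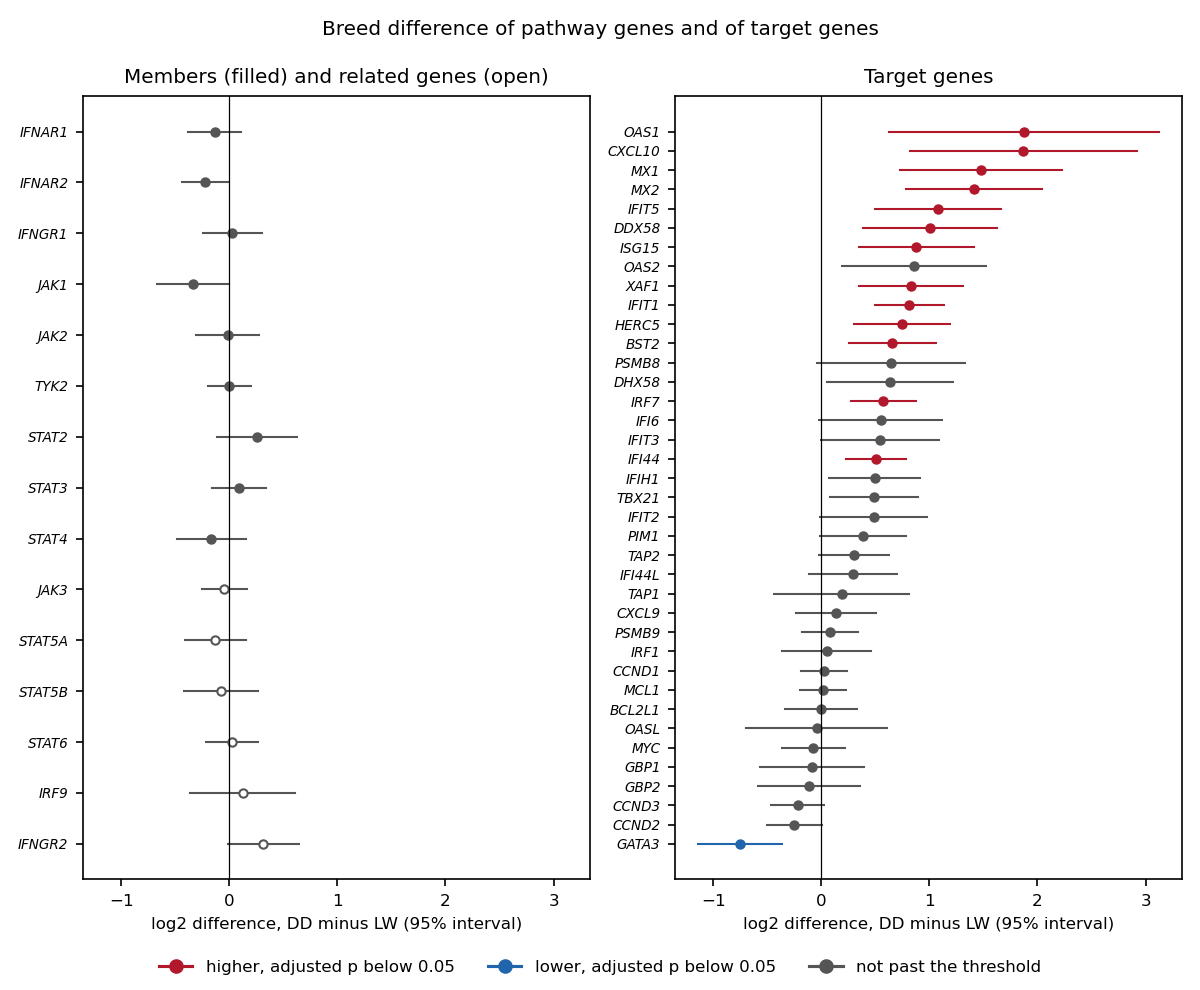
Difference between the breeds (DD minus LW, log2 scale, with 95% interval) of the 9 members (filled) and 6 related genes (open) on the left, and of 38 target genes on the right. On the left no gene passed the adjusted p of 0.05, and on the right 13 were higher (red) and 1 lower (blue).

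Some of the genes that the pathway is known to switch on differed. Of 38 measured genes of a list of 48 targets, 13 rose (34.2%, beside 11.4% of all names), 1 fell and 24 did not pass, and the median difference was 0.49 against -0.05 over all names. The list was chosen with earlier results of these data known, so these shares are a description and no test. OAS1, an enzyme that senses double-stranded viral RNA, ranged from 10.19 to 13.48 in DD and from 5.43 to 11.68 in LW pigs, with a difference of 1.88 (SE 0.60, adjusted p = 0.0333). Chip by chip OAS1 differed by 3.85, 0.46 and 1.62, and without chip 1 it gave 0.92, which did not pass. CXCL10, a chemokine induced by interferon gamma, ranged from 8.99 to 13.51 against 7.20 to 10.05, with a difference of 1.87 (SE 0.51, adjusted p = 0.0185). Neither OAS1 nor CXCL10 passed without chip 3 or with array brightness as a covariate, and OAS1 lost its call in 6 of the 21 runs that left out a pig. In OAS1 and CXCL10 the breeds overlapped, and the highest value of each was that of the DD pig DD_06. Without DD_06, OAS1 gave 1.44 and CXCL10 1.44. The median difference of the 38 targets was then 0.31, and 14 of them passed as higher, as did 5833 of all 34511 names.

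MX1 and MX2, antiviral GTPases, gave 1.48 (SE 0.36, limma adjusted p = 0.0112) and 1.41 (SE 0.30, adjusted p = 0.0048), and IFIT5, which binds viral RNA, gave 1.08 (SE 0.28, adjusted p = 0.0158). GATA3, a factor of T cells, was the 1 that fell, by 0.75 (SE 0.19, adjusted p = 0.0128). Without chip 3, 0 of the 38 passed in limma and 14 had an unadjusted p below 0.05, with a median difference of 0.32 and 28 of 38 above 0. With array brightness as a covariate 2 passed, and the median was 0.60. Without LW_18, 7 passed, and OAS1 passed in 15 of the 21 runs that left out a pig.

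Around the members, 53 genes of 4 further lists (receptor subunits, ligands, negative regulators, adaptors and partners) were tested, and 6 passed, a smaller share than the 21.2% of all names. CSF2RB, the chain shared by receptors of interleukin 3, interleukin 5 and GM-CSF, rose by 0.63 (SE 0.18, limma adjusted p = 0.024), and IL6R, the interleukin 6 receptor that signals through STAT3, fell by 0.55 (SE 0.12, adjusted p = 0.00646), as the 2 of 16 other receptor subunits that passed. Of 11 ligands, IL15, a growth factor of natural killer and memory T cells, fell by 0.58 (SE 0.19, adjusted p = 0.0352). Of 18 negative regulators, CISH, an inhibitor induced by STAT5, rose by 0.81 (SE 0.24, adjusted p = 0.0244), and PTPRC, the phosphatase CD45 of white blood cells, fell by 0.43 (SE 0.12, adjusted p = 0.0224). Of 8 adaptors and partners, CREBBP, a histone acetylase that STATs recruit, fell by 0.35 (SE 0.12, adjusted p = 0.047). The other 47 did not pass, SOCS3 and the other SOCS genes among them. With normexp at offset 50, IL6R gave -0.26 and IL15 -0.36, and both still passed. With the probe of highest mean, PTPRC (-0.21), IL15 and CREBBP did not pass. None of the 6 passed without chip 3, where CSF2RB gave 0.36 and CREBBP -0.19, or with array brightness as a covariate. Of the 21 runs that left out a pig, CREBBP passed in 5 and IL15 in 12. With array brightness as a covariate, CISH gave 0.01, CSF2RB 0.02, CREBBP -0.04 and PTPRC -0.28.

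The members also varied from litter to litter in ways that breed and chip do not account for. After both were removed, the correlations between pairs of members over 11 litters, which share the arrays and their brightness, ran from -0.52 (IFNAR2 with STAT4) to 0.87 (TYK2 with STAT2), with a median of 0.41 and 33 of 36 above 0. Of 7948 genes compared, the one whose pattern was most like that of STAT2 was DHX58 (r = 0.98), a regulator of viral RNA sensing that is on the target list, and for STAT3 it was IRF1 (r = 0.95), an interferon-induced factor on the same list. The closest patterns to the others were TNFSF13B for IFNAR1 (r = 0.90), SUGP1 for IFNAR2 (0.98), PGD for IFNGR1 (0.93), DDX47 for JAK1 (0.97), RAPGEF1 for JAK2 (0.96), FOXS1 for TYK2 (0.96) and PLD1 for STAT4 (0.91), each the highest of 7948 values over few litters. The residuals of STAT2, JAK1, TYK2 and IFNAR2 also followed those of array brightness (r = 0.67, 0.65, 0.66 and 0.76), those of STAT4 less (-0.13). All these correlations are given as descriptions.

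The samples are whole blood, in which fewer cells of a type and less RNA per cell cannot be told apart. T cell markers lay lower in DD pigs, with 4 of 13 (CD3D, CD3G, CD8A and CD247) past the test, all 13 differences below 0 and a median of -0.38. The mean level of that list ran from 8.13 to 9.46 in DD and from 8.37 to 9.58 in LW pigs. Of 11 red cell markers, 4 passed as higher, 8 differences lay above 0 and 3 below, and the median was 0.55. The mean level of this list was 9.49 to 10.86 in DD against 9.25 to 10.44 in LW pigs. The brightest of these markers, AHSP and HBB, did not pass. Of the natural killer list 1 of 13 was higher, of the monocyte list 1 of 11 higher and 2 lower, and of the platelet list 1 of 9 lower. Beside these counts, 11.4% of all names passed as higher and 9.8% as lower. Of 6 B cell and 9 neutrophil markers none passed, and 0 of 15 had an unadjusted p below 0.05. The mean over 6 liver genes, which blood should lack, ran from 4.95 to 5.55 over the pigs, and the brightest of the 6, SERPINC1, had a mean of 7.98. The part of the cell types in the values of the 9 genes was not tested.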

How the data were processed

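RNA from the blood of 10 DD and 11 LW pigs was measured on a custom Agilent pig array in a single colour. The authors processed 3 chips and removed 3 arrays as outliers. The deposited series table holds log2 values, which the authors background corrected and quantile normalized, without a low filter or chip correction. The deposited scanner files (Agilent Feature Extraction 10.7.3.1, per the labels) hold intensity values, not normalized between arrays, and were used for array brightness, background flags and alternatives. No spot was saturated.

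Groups came from the labels, and sow and chip from the study's sample list. Controls and the dimmest 25% of the 60305 other probes, by their mean, were dropped, and the kept probes of a GeneName were averaged. Breed was tested with limma in the model of the study: breed and chip fixed, sow as random block (consensus correlation -0.11), eBayes, Benjamini-Hochberg adjustment, threshold 0.05. The litter test was an exact permutation. Genes named are all members, the pathway genes past the threshold (at most 5 in each direction per list), the related JAK, STAT and receptor genes, and the closest pattern of each member. A gene of one list is not reported here. The members and gene lists were chosen with earlier results of these data known. Array brightness stands for the processed signal's 75th percentile, as a log2 value. Likeness was measured among the genes tested that a reference table names. Sequence matches between probes needed 20 shared bases. Positions are RefSeq's for Sscrofa11.1. The model was tested on simulated data.

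Alternatives were normexp with offsets 0 and 50 from the scanner files, scaling to the 75th percentile, keeping all probes, keeping those well above background on 50% of the arrays of either breed, the probe with the highest mean, names extended by accession, litter means, fits without the sow block or the chip term, trend and robust eBayes, brightness as a covariate, and leaving out each chip and each pig. Tools were R 4.3.3, limma 3.58.1, statmod 1.5.0, the data.table package (version 1.17.8), Python 3.11.15, pandas 2.3.3 and matplotlib 3.10.9.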

Additional observations from a re-analysis of the deposited data

Results flagged for a closer look

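In all, 3 values stood far from the others of their breed, by a gap to the next value that exceeded Dixon's 95% critical value for 10 pigs, among 27 genes checked in DD pigs. Chance gives about 1 such value in 20 groups. For IFNAR2, DD_21 was at 16.68 while the other DD pigs ran from 17.21 to 17.78 (gap over range 0.479). For the target gene MX1, DD_06 was at 15.00 with the next pig at 13.48 (0.494). For MX2, DD_06 was at 12.29 with the next at 10.44 (0.518). Without DD_06 the differences of MX1 and MX2 were 1.21 and 1.10.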

How the results depend on the processing

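In 12 of the 15 settings other than leaving out a pig, 0 of the 9 genes passed. The exceptions were the probe with the highest mean, with 2 genes (JAK1 -0.42, adjusted p = 0.0251, and STAT2 0.49, adjusted p = 0.00366), scaling to the 75th percentile, with 1 (IFNAR2), and the fit without chip 2, with 1 (STAT2 0.49, adjusted p = 0.0391). Of all 34511 names, 4266 passed as higher and 3555 as lower with the probe of highest mean. Without chip 2, 1997 of them passed as higher and 3070 as lower. Without each pig in turn the number was 0 to 2, with IFNAR2 (-0.27) and JAK1 (-0.40) past the test without DD_06. Of 324 differences of the 9 genes under 36 alternatives, 283 kept their direction and side of the threshold, 5 passed it in the same direction, and 36 changed sign, with IFNAR2 under scaling to the 75th percentile past the threshold among them. Scaling to the 75th percentile moved the median of all names from -0.05 to 0.06 and the calls from 3930 higher and 3383 lower to 4900 and 2210. Under it the differences were 0.30 for IFNAR2, 0.0096 for JAK2 and 0.023 for JAK3.

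With brightness as a covariate, 753 names passed, 2 of the other pathway genes and 2 of the target genes, and the signs of IFNAR2 (0.032), JAK1 (0.024), JAK2 (0.051) and JAK3 (0.083) turned, while 0 of the 33 probes passed. Without chip 3, 526 names, 0 of the 96 other pathway genes (17 with an unadjusted p below 0.05 in limma), 0 of the 38 targets and 0 of the 33 probes passed, JAK2 gave 0.044 and STAT6 -0.056. Without the chip term, 1922 names and 11 of the other pathway genes passed, and TYK2 gave -0.00077. With no filter on low probes, 4588 names passed. Leaving out the sow block gave 2634 names higher and 2401 lower. In that limma fit 0 of the 9 genes had an unadjusted p below 0.05. Without chip 1, IFNGR1 gave -0.017, JAK2 0.045, TYK2 -0.063 and STAT6 -0.024. Without chip 2, IFNGR1 gave -0.0037, JAK3 0.051, STAT5A 0.13 and STAT5B 0.071. With the probe of highest mean, JAK2 gave 0.010 and STAT4 0.0066, with litter means TYK2 gave -0.0043, and with normexp at offset 0 JAK2 gave 3.8e-05. The cause was not tested.

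Without each pig in turn, 2212 (without LW_18) to 11486 (without DD_06) names passed, 8 to 24 of the other pathway genes, 7 to 16 of the target genes and 1 (without LW_18) to 5 (without DD_06) of the probes. Over these runs IFNGR1 ran from -0.026 to 0.11, JAK2 from -0.10 to 0.055, TYK2 from -0.038 to 0.050, STAT5B from -0.14 to 0.045 and STAT6 from -0.019 to 0.11. No paired analysis was possible because the pigs of the breeds share no number or sow. Of the 33 probes, 6 were not well above background on every array, and dim arrays limit these most.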
